A study of Mus musculus with 12 samples.

Results

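The genes that set liver apart from brain were described from 3 arrays of a single adult mouse of the NMR-1 strain, 1 each for liver, cortex and cerebellum, processed by the standard labelling protocol with 1 linear amplification of 5 µg of total RNA (1X). A probe set, the group of oligonucleotides on an Affymetrix array that reports on a transcript, was taken when its liver signal lay at least 2 log2 units (4-fold) above, or below, both brain signals. Of 12422 probe sets, 391 lay higher in liver (3.15%) and 213 lay lower (1.71%), 604 in all. The other 9 arrays held 3 technical replicates for each of liver, cortex and cerebellum, made from 1 ng of the same tissues' RNA with 3 linear amplifications (3X). No treatment or allele was involved, and all groups came from the same mouse. Because the 1X signals chose the genes and each tissue had 1 such array, 1X differences are given as a description with no test. The 3X arrays took no part in the choice and were used for the tests. As the 3X replicates were technical, their p-values measure only the spread between arrays.

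Liver is built largely of hepatocytes, which make most plasma proteins, clear ammonia through the urea cycle and carry the main enzymes that oxidise and conjugate foreign compounds. Cortex and cerebellum hold neurons, which release transmitter from synaptic vesicles and maintain long axons, together with astrocytes and the oligodendrocytes that wrap axons in myelin. Many of these transcripts are used as markers of their cell type. In whole tissue, fewer cells of a type and less RNA per cell cannot be told apart.

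The markers of the labelled tissues were checked at each gene's brightest probe set. Of 7 hepatocyte markers, Alb, Apoa1, Serpina1b, Fgb, Cps1 and Tat were among the genes higher in liver, and Ttr, the plasma carrier of thyroid hormone that the choroid plexus of the brain also makes, was not. Its 1X signals were 13.03 (liver), 11.57 (cortex) and 9.01 (cerebellum). Of 23 brain markers measured, 7 were among the genes lower in liver, namely 3 of 5 neuronal, 0 of 4 forebrain, 1 of 7 cerebellar, 2 of 4 astrocyte and 1 of 3 oligodendrocyte markers. Snap25, Stmn2 and Tubb3 were the neuronal ones. The rule asks for liver below both regions, so a marker bright in a single region cannot pass. The forebrain and cerebellar counts are therefore no check of those markers. Syt1, a calcium sensor of synaptic vesicles, had signals of 8.19 in liver, 10.69 in cortex and 9.38 in cerebellum, and Nefl, a neurofilament subunit, was dim on all 3 arrays (2.18, 2.58 and 2.53). Slc1a2, the astrocyte glutamate transporter, read as bright in liver as in brain at its brightest probe set at 1X (8.97, 8.90 and 8.72). At 3X the means of that probe set were 9.25 in liver, 10.16 in cortex and 9.56 in cerebellum. Whether the probe set reads Slc1a2 alone was not tested. Gfap, Mog and Mobp did not pass at their brightest probe sets. Of the regional markers, Nrgn (2.10, 4.68 and 2.29) was highest in cortex and Zic1 (1.00, 2.23 and 5.67) in cerebellum. Gabra6 (3.26, 3.46 and 6.14), Neurod1 (2.34, 2.65 and 4.15) and Cbln1 (1.79, 1.99 and 3.96) were also highest in cerebellum. So were Pcp2 (4.27, 4.95 and 5.39) and Calb1 (2.21, 5.04 and 5.95), with cortex closer. Camk2a (4.90, 5.69 and 4.77), Neurod6 (3.93, 4.28 and 3.91), Fezf2 (1.85, 2.81 and 1.84) and Car8 (2.45, 1.83 and 2.56) spanned less than 1 log2 unit. Some kidney transcripts also had their highest 1X signal in the cerebellum sample. Kap, an androgen-regulated kidney transcript, had a 1X signal of 4.66 in liver, 4.92 in cortex and 8.66 in cerebellum, and Miox, the inositol oxygenase of kidney tubules, had 4.38, 4.67 and 8.51 in the same order. The kidney markers Slc22a6 (2.84, 3.22 and 3.17) and Slc12a1 (2.17, 2.30 and 2.78) were dim on all 3 arrays. Of 54 kidney genes measured, 11 lay at least 1 log2 unit higher in cerebellum than in cortex and 0 lay the other way. The share of all genes that did so was not counted. The median cortex minus cerebellum difference of the kidney genes was -0.32, beside 0.02 over all genes. The log2 signals of the kidney genes summed to 201.6 in liver, to 172.7 in cortex and to 208.8 in cerebellum. A sum of log2 signals is no amount of RNA. The kidney list also holds genes of the liver lists that were bright in liver, such as Fbp1, Hao2 and Cyp2e1. The adult haemoglobin transcript Hba-a1 also had its highest 1X signal in cerebellum (6.82 in liver, 7.51 in cortex and 9.19 in cerebellum).

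The 391 probe sets higher in liver included 345 with 1 gene symbol, which stood for 317 genes, beside 22 with several symbols and 24 with none. The 213 lower in liver included 190 with 1 symbol, for 170 genes, beside 7 with several and 16 with none. The gap of a probe set is its liver difference to the nearer brain region. It reached 8.96 among the genes higher in liver (median 3.30) and -8.24 among those lower (median -2.81). A gap beyond 6 was seen for 45 probe sets higher in liver and for 6 lower. In 213 of the 391 probe sets higher in liver, both brain signals lay below the median of their arrays, so that the difference there ran against dim signals and is no measured ratio of RNA. Among the 213 lower in liver, the liver signal lay below its array's median in 102.

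Promoter sequences are shown for the genes of largest gap with a single start site in RefSeq (GRCm38.p6), 120 bases up to the start, 5′ to 3′. In the liver genes, chosen also because they hold it, capitals mark GTTAAT, the core of the motif bound by HNF1, a homeodomain factor of hepatocytes.
Alb promoter, chr5:90460750-90460869, plus strand: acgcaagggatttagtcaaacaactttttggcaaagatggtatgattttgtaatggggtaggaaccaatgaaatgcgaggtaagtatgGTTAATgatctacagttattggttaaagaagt
Serpina1c promoter, chr12:103904951-103905070, minus strand: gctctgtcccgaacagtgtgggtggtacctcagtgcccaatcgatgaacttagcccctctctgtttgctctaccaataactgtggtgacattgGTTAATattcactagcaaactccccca
Fabp1 promoter, chr6:71199759-71199878, plus strand: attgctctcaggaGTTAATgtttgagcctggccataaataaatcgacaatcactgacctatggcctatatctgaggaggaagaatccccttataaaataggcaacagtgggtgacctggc
Serpina1b promoter, chr12:103738190-103738309, minus strand: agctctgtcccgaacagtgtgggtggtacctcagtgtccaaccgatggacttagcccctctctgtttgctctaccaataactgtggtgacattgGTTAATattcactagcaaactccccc
In the genes lower in liver, capitals mark CG pairs, the dinucleotide concentrated in CpG islands.
Tuba1a promoter, chr15:98953502-98953621, minus strand: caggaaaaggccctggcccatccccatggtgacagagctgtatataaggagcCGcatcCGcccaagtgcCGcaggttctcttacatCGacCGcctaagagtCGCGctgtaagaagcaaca
Dnm1 promoter, chr2:32353330-32353449, minus strand: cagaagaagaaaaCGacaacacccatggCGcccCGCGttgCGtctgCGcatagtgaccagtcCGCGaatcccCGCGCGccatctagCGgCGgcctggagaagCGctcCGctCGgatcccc
Basp1 promoter, chr15:25413765-25413884, minus strand: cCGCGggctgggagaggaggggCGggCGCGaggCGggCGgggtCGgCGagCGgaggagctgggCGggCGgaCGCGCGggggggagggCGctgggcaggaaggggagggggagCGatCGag
Ptgds promoter, chr2:25469750-25469869, minus strand: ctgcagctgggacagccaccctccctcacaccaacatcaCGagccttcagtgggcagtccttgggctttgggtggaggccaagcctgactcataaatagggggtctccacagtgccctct
Alb, Serpina1c and Serpina1b carried it with its first base at positions -32, -27 and -26 from the start, and Fabp1 at -107. The 120 bases held 7 CG pairs in Tuba1a, 16 in Dnm1, 18 in Basp1 and 1 in Ptgds. Over windows of 300 bases (250 before the start to 50 after), read on both strands, GTTAAT was present in 13.3% of 323 promoters of genes higher in liver and 4.44% of 180 promoters of genes lower in liver, beside 5.16% of 8412 promoters of all genes on the array. The TATA box sequence TATAAA was present in 20.1% of promoters of genes higher in liver, 8.89% of those lower and 9.99% of all on the array. The neuronal repressor (RE1) motif part TTCAGCACC was in 0 of 323 promoters of genes higher in liver and in 1 of 180 of those lower (0.556%). It was in 34 of 8412 of all on the array (0.404%). These member counts are too small to compare. Promoters of genes higher in liver held a median of 6 CG pairs, those lower 19, and all on the array 18. Over all 32851 promoters of the RefSeq table the median was 7 CG pairs, with GTTAAT in 7.1% and TATAAA in 13.6%. Both A- and T-rich motifs move with this base composition, and its part in their shares was not tested. Promoters were found for 260 of the 317 genes higher in liver and 133 of the 170 lower.

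Secreted plasma proteins led the genes higher in liver. The largest gap belonged to Plg, which gives the fibrin-cutting protease plasmin, with a 1X signal of 11.26 in liver against 2.30 in cortex and 2.24 in cerebellum. The probes of this Plg probe set may be shared with related transcripts. Alb, serum albumin, had 12.57 in liver against 3.77 and 3.25, and Apoa1, the main protein of high-density lipoprotein, had 12.84 against 4.50 and 4.28. For each of these genes the liver signal stood more than 8 log2 units above both brain signals, which were close to each other. On the 3X arrays Plg had signals of 10.95, 10.57 and 11.96 in liver, against 2.17 to 2.73 in the 6 brain arrays, and limma gave a difference of 8.64 ± 0.28 (SE) from cortex and 8.89 ± 0.28 from cerebellum (adjusted p = 7.95e-09 and 7.00e-09). Alb had 11.04, 10.39 and 11.72 in liver at 3X, against 3.58 to 3.86 in brain. The liver arrays of both genes lay far above all brain arrays.

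Gene lists by function, written with earlier results of these data known, were counted at each gene's brightest 1X probe set. At that level 297 of 8251 genes (3.6%) lay higher in liver by the same rule and 153 (1.85%) lay lower, and in the 3X test 5.44% of genes were called higher in liver than both regions and 7.96% lower. Of 38 carrier and acute phase proteins, 26 were higher in liver at 1X, and 24 of the 26 were called higher at 3X. They included Ambp, which gives a plasma protease inhibitor, and Ahsg, fetuin-A, a plasma inhibitor of mineral deposition, whose 1X signals were 10.03 and 13.43 in liver against 2.35 and 6.07 in cortex and 2.23 and 5.90 in cerebellum. The median difference of the list was 4.59 from cortex and 4.56 from cerebellum, beside -0.04 and -0.01 over all genes.

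Of 24 coagulation and fibrinolysis genes, 17 were higher in liver, and 14 of the 17 were called at 3X. Serpinc1, antithrombin, had a 1X signal of 8.84 in liver against 2.42 and 2.28, and F2, prothrombin, had 7.94 against 1.86 and 1.86. Both had far smaller differences at 3X. F2 had signals of 3.75, 3.80 and 4.39 in the 3X liver arrays, against 2.12 to 2.38 in brain, a difference of 1.78 ± 0.15 from cortex in limma (adjusted p = 1.60e-05). Fgg, the gamma chain of fibrinogen, kept a wider separation, with 9.32, 9.18 and 9.87 in liver against 4.48 to 4.78 in brain. In both genes no liver array overlapped a brain array.

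Of 8 serpins, a family of serine protease inhibitors, 7 were higher in liver, and all 7 were called at 3X. Serpina1c, Serpina1b and Serpina1e, mouse copies of alpha-1 antitrypsin, had gaps of 8.67, 7.91 and 7.70. These copies are near-identical and the last pair was read by probe sets shared within the family, so their signals cannot be assigned to single genes with certainty. Serpina6, the plasma carrier of glucocorticoids, had a 1X signal of 9.999 in liver against 3.55 and 3.57. At 3X it had 5.95, 5.23 and 5.75 in liver against 3.72 to 4.08 in brain. Complement had fewer: 5 of 16 genes were higher in liver and 3 of the 5 were called at 3X. Cfi, the protease that inactivates complement fragments, had 8.91 in liver against 2.27 and 2.23 at 1X, and 5.73, 6.51 and 8.21 in liver against 2.42 to 2.73 in brain at 3X. The spread between its 3 liver arrays was wide, and all 3 lay above the brain arrays.

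Lipid carriers and enzymes formed a further group. Of 24 apolipoprotein and lipid transport genes, 15 were higher in liver and all 15 were called at 3X. Fabp1, the fatty acid binding protein of hepatocytes, had a 1X signal of 12.10 in liver against 3.73 and 3.65. Apoh, beta-2 glycoprotein I, had 9.25 against 2.12 and 2.05, and Apoc1, an apolipoprotein that inhibits lipid transfer and clearance, had 8.99 against 2.64 and 2.61. Of 42 genes of fatty acid, sterol and ketone metabolism, 14 were higher in liver and 12 of the 14 were called at 3X. Acaa1b, a peroxisomal thiolase of fatty acid oxidation, had 7.43 in liver against 2.37 and 2.86, and Thrsp, a thyroid-responsive regulator of lipid synthesis, had 7.83 against 3.41 and 3.80. At 3X, Acaa1b had 6.44, 6.16 and 7.74 in liver, 3.05 to 3.13 in cortex and 3.71 to 3.88 in cerebellum.

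Nitrogen and one-carbon metabolism gave the largest share among the lists of enzymes. Of 45 genes of the urea cycle and amino acid catabolism, 28 were higher in liver, 24 of them also called at 3X. Cps1, which makes carbamoyl phosphate for the urea cycle, had a 1X signal of 8.69 in liver against 1.96 and 1.88. Otc, the next enzyme of the cycle, had 10.70 against 4.97 and 4.93, and Bhmt, which remethylates homocysteine with betaine, had 9.98 against 2.65 and 2.59. The 3X arrays of Otc read 11.52, 11.001 and 12.03 in liver against 5.11 to 5.30 in brain, a difference of 6.29 ± 0.20 from cortex (limma adjusted p = 7.63e-09), which was larger than the 1X gap of 5.73. Gnmt, which consumes S-adenosylmethionine, had 8.26 in liver against 1.90 and 1.98 at 1X, and 5.55, 5.35 and 5.81 against 2.06 to 2.35 at 3X. Of 21 genes of glucose, glycogen and fructose metabolism, 6 were higher in liver and all 6 were called at 3X. The largest gaps in that list were those of Adh1, an alcohol dehydrogenase, and Igfbp4, a binding protein of insulin-like growth factors, beside Fbp1 of gluconeogenesis and the glucose transporter gene Slc2a2. Adh1 and Igfbp4 stand in the list although neither acts on glucose, glycogen or fructose.

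Detoxification enzymes were the most numerous. Of 63 genes of conjugation, ester and aldehyde detoxification, 34 were higher in liver and 32 of the 34 were called at 3X, and of 30 cytochrome P450 genes 13 were higher, 12 of them called. Akr1c6, an aldo-keto reductase acting on steroids, had a 1X signal of 9.40 in liver against 1.78 and 1.74. Ces3a, a carboxylesterase, had 8.70 in liver against 2.56 and 2.42, and its 3X signals were 9.17, 8.66 and 9.08 in liver against 2.53 to 2.98 in brain. Mgst1, a membrane-bound glutathione transferase, had 7.34 against 1.56 and 2.02 at 1X. Cyp3a11, a drug-metabolising P450, had 9.77 in liver against 2.75 and 2.62 at 1X and 7.17, 6.97 and 8.98 against 2.86 to 3.31 at 3X. No liver array of these 3X series overlapped the brain arrays.

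Of 22 genes of bile acid synthesis and hepatocyte transport, 9 were higher in liver and 7 of the 9 were called at 3X. Slc10a1, the bile acid uptake carrier, had 8.31 in liver against 2.06 and 1.98 at 1X, and 6.20, 4.10 and 5.48 against 2.19 to 2.54 at 3X. Asgr1, a subunit of the asialoglycoprotein receptor, had 9.67 against 4.51 and 4.74 at 1X. Transcription factors and nuclear receptors were few, with 5 of 35 higher in liver, all 5 called at 3X. Cebpa, a basic leucine zipper factor of hepatocyte differentiation, had 9.40 in liver against 6.05 and 6.08 at 1X, and 7.35, 7.19 and 7.04 against 6.17 to 6.38 at 3X. Nr1i3, the constitutive androstane receptor, had 8.32 against 5.69 and 5.57, and Ppara, the fatty acid receptor, had 5.14 against 2.64 and 2.48. The list also counts Ghr, the growth hormone receptor of the cell surface, which is no transcription factor (7.79 against 3.82 and 4.13).

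Of 40 genes of Kupffer, sinusoidal and immune cells, 8 were higher in liver and 7 of the 8 were called at 3X. H2-Q10, a secreted class I molecule of mouse liver, had 9.02 in liver against 2.80 and 2.67, and H2-K1, a classical class I heavy chain, had 12.88 against 8.06 and 8.99. Class I genes are near-identical in part, and their probe sets may share signal. Ccl9, a chemokine, had 6.01 against 2.04 and 1.97. Clec4f, a lectin that marks Kupffer cells, lay just outside the rule, with 3.98 in liver against 1.98 and 1.99. Rgn, the calcium-binding enzyme regucalcin, was the exception in the brain list of postsynaptic, calcium and G protein signalling, with 8.45 in liver against 2.52 and 2.47.

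Genes lower in liver were led by neuronal transcripts. Snap25, a membrane fusion protein of synaptic terminals, had a 1X signal of 2.99 in liver against 11.24 in cortex and 11.43 in cerebellum. Tuba1a, the alpha-tubulin of growing neurons, had 6.89 against 13.20 and 13.19. Cpe, the carboxypeptidase that trims neuropeptides, had -1.22 in liver, a value so low that it is no measured level, against 5.62 and 5.06. The synaptic gene and the tubulin gene behaved differently at 3X. Snap25 had 6.15, 7.11 and 5.26 in liver against 7.27 to 7.86 in brain, a difference of -1.39 ± 0.37 from cortex (limma adjusted p = 0.0249). Tuba1a had 7.10, 8.19 and 7.82 in liver against 12.35 to 13.05 in cortex and 12.66 to 13.16 in cerebellum, a difference of -5.04 ± 0.27 from cortex (limma adjusted p = 3.35e-07).

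Of 33 genes of synaptic vesicle release and recycling, 10 were lower in liver and 6 of the 10 were called lower at 3X. Dnm1, the dynamin that pinches off recycling vesicles, had 3.09 in liver against 9.38 and 9.17 at 1X, and 4.06, 5.54 and 3.98 against 10.71 to 10.93 at 3X. Vamp2, the vesicle partner of Snap25, had 4.83 against 8.28 and 7.69 at 1X, and 4.98, 4.66 and 4.76 against 5.42 to 6.16 at 3X. The separation of Dnm1 was as wide at 3X as at 1X, and that of Vamp2 was narrower. Of 48 genes for transmitter receptors, transporters and synthesis, 5 were lower in liver and all 5 were called at 3X. Gad1, which makes the inhibitory transmitter GABA, had 3.42 in liver against 8.08 and 7.61 at 1X, and Gria2, a subunit of the fast glutamate receptor, had 3.06 against 7.57 and 6.04. Of 45 ion channel and pump genes, 1 was lower in liver, the calcium pump gene Atp2a2 of the endoplasmic reticulum, and it was called at 3X. Of all 45, 15 were called lower in liver than both regions at 3X, as were 9 of the 48 receptor, transporter and synthesis genes, beside 7.96% of all genes.

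Of 80 genes of postsynaptic, calcium and G protein signalling, 10 were lower in liver and all 10 were called at 3X. Vsnl1, a neuronal calcium sensor, had 6.47 in liver against 12.51 and 12.56 at 1X. At 3X it had 6.50, 6.55 and 6.65 in liver, 7.89 to 8.42 in cortex and 7.80 to 8.11 in cerebellum. Its liver signal was alike by both procedures, and its brain signals were lower at 3X. Gnao1, a G protein alpha subunit abundant in neurons, was further apart at 3X, with 2.16 in liver against 6.55 and 5.79 at 1X, and 2.90, 3.32 and 2.94 against 8.08 to 8.43 in cortex and 7.20 to 7.75 in cerebellum at 3X.

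The axonal, cytoskeletal and growth proteins held the most members of any brain list, with 34 of 84 genes lower in liver and 31 of the 34 called at 3X. The list's median difference was -1.85 from cortex and -1.82 from cerebellum at 1X. Basp1, a membrane-bound protein of growth cones, had 0.62 in liver against 7.75 and 6.55, and Ndrg4, a protein of neurons and heart, had 5.53 against 11.74 and 11.38. Nnat, an imprinted membrane protein of developing brain, had 4.48 against 9.98 and 10.38. At 3X, Basp1 had 0.85, 1.13 and 0.51 in liver against 6.55 to 6.92 in cortex and 5.57 to 5.66 in cerebellum. Of 37 neuropeptide, granin and secreted neuronal genes, 9 were lower in liver and 7 of the 9 were called at 3X. Chgb, a granin of dense-core vesicles, had 3.14 in liver against 8.52 and 8.35 at 1X, and 3.41, 4.13 and 3.50 against 9.28 to 9.83 at 3X. Of 48 adhesion, guidance and perineuronal matrix genes, 5 were lower in liver, and 1 of the 5, the adhesion molecule gene Cntn1, was called at 3X.

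Of 35 astrocyte genes, 8 were lower in liver and 6 of the 8 were called at 3X. Aldoc, the brain aldolase found in astrocytes and Purkinje cells, had 0.67 in liver against 4.41 and 5.82 at 1X, and 0.34, 0.49 and 0.34 against 2.69 to 2.72 in cortex and 3.35 to 3.60 in cerebellum at 3X. Of 20 oligodendrocyte and myelin genes, 3 were lower in liver and all 3 were called at 3X. Mbp, a structural protein of compact myelin, had 7.14 in liver against 10.81 and 12.69. Ptgds, a prostaglandin synthase made by oligodendrocytes and the meninges, had 2.86 against 8.70 and 9.16. Gjb1, connexin 32, stands in the myelin list but is also the main gap junction protein of hepatocytes, and it lay higher in liver (7.18 against 2.93 and 3.39).

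Of 45 energy and metabolic isozymes that brain uses, 9 were lower in liver and 7 of the 9 were called at 3X. Slc25a4, the ADP/ATP carrier of heart and brain, had 1.73 in liver against 7.19 and 7.46, Eno2, the neuronal enolase, had 1.23 against 6.21 and 6.49, and Ckb, the brain creatine kinase, had 4.10 against 8.63 and 9.05. Of 60 neuronal transcription and RNA regulators, 0 passed the rule in either direction at 1X, although 9 were called lower in liver at 3X. The lists for blood (19 genes) and muscle (32 genes) held 0 members. Of the 54 kidney genes, 5 were higher in liver, 4 of them called at 3X, and 1, Calb1, was lower and also called. Of 16 choroid plexus and meningeal genes, the water channel gene Aqp1 was higher and Ptgds lower, and of 24 pancreas and gut genes, Apoa4 was higher. Ptgds and Apoa4 were called at 3X. Aqp1 was not, with differences of 0.16 ± 0.19 from cortex and 0.40 ± 0.19 from cerebellum (limma adjusted p = 0.658 and 0.213). In all, 300 of the 487 genes were in a list and 187 were in none.

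At 3X, 312 of the 391 probe sets higher in liver (79.8%) were called higher than both brain regions by limma, beside 5.02% of all 12422 probe sets. Of the 213 lower in liver, 168 (78.9%) were called lower, beside 7.45% of all. None was called in the opposite direction. When only the 2 tissues compared were fitted, 276 of the 391 (70.6%) and 162 of the 213 (76.1%) were called. All 391 kept their sign against both regions, and 199 of the 213 did. The differences were smaller at 3X. The median for the genes higher in liver was 1.30 from cortex and 1.19 from cerebellum at 3X, with 3.60 and 3.33 at 1X, and for the genes lower in liver it was -1.27 and -1.24 at 3X, with -3.09 and -2.97 at 1X. Over all probe sets the medians at 3X were 0.01 and 0.02. The 3X gap reached 2 in 121 of the probe sets higher in liver and in 55 of those lower, whereas 5 probe sets above and 15 below had a 3X gap of at least 2 without being members.

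The loss of difference lay mainly in the tissue where the transcript was bright. For the genes higher in liver, the 3X mean minus the 1X signal had a median of -1.89 in liver, 0.23 in cortex and 0.23 in cerebellum. For the genes lower in liver the shifts were 0.24 in liver, -1.63 in cortex and -1.77 in cerebellum. Over all probe sets it was 0.15, 0.11 and 0.14. The members were taken for their extreme 1X signals, so a shift towards the middle is in part built into these medians, and that part was not tested. Across genes, which are not independent replicates, the 1X and 3X gaps had a Pearson's r of 0.81 and a Spearman's rho of 0.72 over the 391 probe sets higher in liver, and 0.51 and 0.36 over the 213 lower. All points share the same arrays.

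The 3 liver arrays at 3X did not stand equally far from brain. For the genes higher in liver, replicate 3 lay a median of 1.81 above the cortex mean, replicate 1 lay 1.11 above and replicate 2 lay 1.04 above, and replicate 3 was the highest of the 3 in 297 of 391 probe sets. For the genes lower in liver the medians were -1.32, -1.22 and -1.25 in the same order. Replicate 3 lay beyond both other liver arrays in 99 of these 213 probe sets. The share over all probe sets was not counted. The SD of the 3 liver arrays had a median of 0.38 among the genes higher in liver, against 0.11 in both cortex and cerebellum. Without replicate 3 of liver, 313 probe sets higher in liver and 160 lower were called at 3X.

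Of the genes higher in liver, 79 probe sets were not called at 3X. Hamp, which encodes the iron hormone hepcidin, had the largest gap among them. Its 1X signal was 8.92 in liver against 2.30 and 2.12, and its 3X signals were 2.60, 2.88 and 2.54 in liver against 2.28 to 2.58 in brain. The liver signal of Hamp was therefore near that of brain on all 3X arrays. C4bp, a brake on complement, had 7.78 against 2.08 and 2.05 at 1X, and 2.71, 2.86 and 4.44 in liver against 2.23 to 2.42 in brain at 3X. Cd1d1, a lipid-presenting molecule, had 6.52 against 1.88 and 1.85 at 1X, and 2.69, 2.83 and 5.62 against 1.86 to 2.16 at 3X. In C4bp and Cd1d1 all 3 liver arrays lay above the brain arrays, with replicate 3 far above the other two. Errfi1, a feedback inhibitor of the EGF receptor, showed the same order of arrays (3.42, 3.52 and 6.14 in liver against 2.88 to 3.40 in brain), as did Cd302, a lectin receptor (2.84, 3.48 and 5.10 against 2.30 to 2.69). Mbl2, a mannose-binding lectin of plasma, passed against cortex and not against cerebellum (limma adjusted p = 0.0387 and 0.0600).

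Of the genes lower in liver, 45 probe sets were not called at 3X. Uchl1, a ubiquitin hydrolase abundant in neurons, had 7.33 in liver against 11.51 and 11.20 at 1X, and 7.75, 7.69 and 7.93 in liver against 7.68 to 7.93 in brain at 3X. Sst, the inhibitory peptide somatostatin, had 3.18 against 7.80 and 6.14 at 1X, and 3.69, 3.47 and 3.25 against 3.14 to 3.52 at 3X. Cx3cl1, the neuronal chemokine fractalkine, had 3.70 against 9.24 and 6.87 at 1X, and 4.35, 4.47 and 3.96 against 3.97 to 4.47 at 3X. In all of these the 3X groups overlapped. Mt3, the brain metallothionein, had 4.92, 4.91 and 4.97 in liver at 3X against 4.87 to 5.19 in brain. Pcsk1n, an inhibitor of the peptide-processing convertases, passed against cerebellum and not against cortex (limma adjusted p = 0.0333 and 0.111). Its 3X signals were 5.38, 5.06 and 5.08 in liver against 5.36 to 5.88 in brain. The sign against at least 1 region turned at 3X in 14 probe sets, among them those of Cx3cl1, Sst, the synaptic protein gene Cplx1 and the kinase subunit gene Prkar1b.

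The SD of the cortex minus cerebellum difference at 1X was 0.72 over the 213 probe sets lower in liver, 0.32 over the 391 higher and 0.30 over all. The rule used these signals, taking genes bright in brain for the lower side and many dim in brain for the higher side, so these SDs are given as a description. In the 3X test 16 of the 213 (7.51%) and 9 of the 391 (2.3%) were called between the regions, beside 1.06% of all probe sets. Of the 16, 9 were higher in cortex and 7 in cerebellum. All 9 of the genes higher in liver were higher in cerebellum. The count of 25 became 48 without replicate 3 of 3X liver and 53 in a fit of cortex and cerebellum alone.

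Among the genes lower in liver, Penk, the precursor of the enkephalins, had 2.79 in liver, 7.95 in cortex and 5.71 in cerebellum at 1X. Its 3X signals were 5.12 to 6.05 in cortex and 3.65 to 3.93 in cerebellum, a difference of 1.87 ± 0.20 for cortex minus cerebellum (limma adjusted p = 0.00103). Olfm1, a secreted olfactomedin of neurons, and Ppp3r1, the regulatory subunit of calcineurin, also lay higher in cortex at 3X, by 1.73 ± 0.18 and 1.76 ± 0.18 (limma adjusted p = 0.000734 and 0.000890). Mbp and some probe sets of Mobp lay the other way. Mobp, a protein of compact myelin, had -0.08 in liver, which is no measured level, 3.93 in cortex and 6.51 in cerebellum at 1X, and 3.54 to 3.78 in cortex against 5.35 to 5.47 in cerebellum at 3X. Another of its 4 probe sets also separated the regions at 3X (3.34 to 3.53 in cortex against 4.90 to 5.04 in cerebellum), but the other two were not called, with 3X differences of -0.30 ± 0.10 and -0.23 ± 0.13 for cortex minus cerebellum (limma adjusted p = 0.336 and 0.710). Mbp differed by -1.36 ± 0.13 at 3X for cortex minus cerebellum (limma adjusted p = 0.000583). The cortex and cerebellum arrays did not overlap for Penk, Olfm1, Ppp3r1 and Mbp.

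Among the genes higher in liver, Fbp1, fructose bisphosphatase of gluconeogenesis, had 11.11 in liver, 4.03 in cortex and 6.20 in cerebellum at 1X. Its 3X signals were 4.33 to 4.64 in cortex and 6.79 to 7.504 in cerebellum, a difference of -2.59 ± 0.22 (limma adjusted p = 0.000313). Hao2, a peroxisomal hydroxyacid oxidase of liver and kidney, had 4.19, 0.15 and 1.78 in the same tissue order at 1X and differed by -1.97 ± 0.25 at 3X (limma adjusted p = 0.00278). Of the 391 probe sets, 10 lay at least 1 log2 unit higher in cerebellum than in cortex at 1X and 0 lay the other way. The rule used these 1X signals, so this count is a description. At 3X, 14 of the 54 kidney genes were called higher in cerebellum and 0 higher in cortex. Over all probe sets, 1.06% were called in either direction. Of the genes higher in liver that were called between the regions, 3 stood in the kidney list. These were Fbp1, Hao2 and Slc27a2, which also stood in lists of liver metabolism. The part of kidney transcripts in these regional differences was not tested. Liver lay at least 2 log2 units above cortex alone in 54 probe sets and above cerebellum alone in 12. The 54 included Aldh1a1, a retinaldehyde dehydrogenase, with 10.6 in liver, 6.56 in cortex and 8.83 in cerebellum.

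Probe sets of the same gene could disagree. Of the genes higher in liver, 67 had a probe set that passed and another that did not, and 59 of the genes lower in liver did, whereas several probe sets passed for 24 and 18 genes. For Fabp1 the probe set described above had a gap of 8.37 and another had 3.28 in liver against 3.28 and 3.14. For Slc10a1 the gaps were 6.26 and 0.09, and for Chgb they were -5.21 and -0.06. Among genes with several passing probe sets, those of Cyp2d10, a P450 of the debrisoquine hydroxylase family, differed in their 3X signals. The probe set of largest gap, whose probes may be shared with related transcripts, had 10.73 in liver against 3.77 and 3.66 at 1X, and 5.17, 5.26 and 6.002 against 3.87 to 4.16 at 3X. The other had 8.41 against 2.37 and 2.33 at 1X, and 9.02, 8.85 and 9.39 against 2.54 to 2.89 at 3X. A suffix that marks shared or less specific probes was carried by 21.5% of probe sets higher in liver, 25.8% of those lower and 22.6% of all.

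At the threshold, the genes just inside were Tram1, of protein translocation into the endoplasmic reticulum, Papss2, which makes the sulfate donor, and Sc5d, of cholesterol synthesis, each with a gap of 2.00. Just outside were Abcb4, the phospholipid exporter of bile, Clec4f and the interferon-induced GTPase gene Iigp1, each at 1.99. On the lower side, Glrb, a glycine receptor subunit, and Pfkp, a phosphofructokinase, had gaps of -2.02 and Pafah1b2, a subunit of an acetylhydrolase, had -2.01. Bcan, a proteoglycan of the brain matrix, had -1.99, and Enah, an actin regulator, and Wdr6, a repeat protein, had -1.98.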

How the data were processed

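RNA of liver, cortex and cerebellum from 1 mouse was measured on 12 MG_U74Av2 arrays. The authors deposited log2 signals per probe set, made with RMA per the submitters' processing notes. Neither its version, nor the base of the logarithm, nor a joint run of all arrays is stated there; base 2 was inferred because the maximum of 14.46 exceeds the natural logarithm of the largest 16-bit reading (11.09). Array medians were 3.45 to 3.48. RMA gives no detection call, and 16 values were below 0. Arrays have no read depth; their number limits the precision.

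Of 12488 probe sets in the table, 66 controls were left out. Of the 12422 used, 10833 had 1 symbol in the platform annotation (8251 genes), 396 several and 1193 none, and only those with 1 symbol were named. Gene identifiers of 10817 were found in RefSeq (GRCm38.p6), which also gave the promoters.

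The 9 3X arrays were fitted with lmFit, contrasts.fit and eBayes of limma 3.58.1 (R 4.3.3; two-sided), 1 fit for 3 tissues, with Benjamini-Hochberg adjustment over 12422 probe sets. A member was called at 3X when liver differed from both regions in the same direction at an adjusted p under 0.05. Counts were made with pandas 2.3.3 in Python 3.11.15. In simulated arrays with 200 changed probe sets, 48% of changes of 0.5 log2 units were recovered, 92% of 1, 98% of 2 and 100% of 4, with 3 false calls. The simulated tissues shared 1 SD per probe set and had independent noise. In the data, the genes higher in liver had a median SD of 0.38 in liver and 0.11 in cortex and cerebellum. The simulated rates were therefore not shown to hold for the liver contrasts.

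The members and the 29 gene lists were chosen with earlier results of these data known. Named genes were drawn from the 15 largest gaps per direction and from up to 4 members per list. Further sources were up to 8 members with the largest regional differences and up to 8 not called at 3X per direction. Others were up to 6 with a turned sign, the 3 nearest the threshold on either side, genes whose probe sets disagree, and tissue markers. Not all genes in these sets are described. Mup3 and Pzp, among the 15 largest gaps higher in liver, are not. Cyp2d10's second probe set, Aldh1a1 and the genes under other observations were chosen after their values were seen. Alternatives were other normalizations, filters, thresholds and fits, and leaving out each array.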

Additional observations from a re-analysis of the deposited data

Results flagged for a closer look

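Some probe sets lower in liver than a brain region at 1X had all 3 of their liver replicates above that region's mean at 3X. The 1X side of each rests on 1 array, and the difference between the procedures was not tested. Ptprn, a secretory granule phosphatase-like protein, had a liver minus cortex difference of 0.232 at 3X and -2.876 at 1X (limma adjusted p = 0.159 at 3X). Dctn1, a subunit of the motor complex dynactin, had 0.260 and -2.200 against cortex (adjusted p = 0.0565) and 0.095 and -2.355 against cerebellum (adjusted p = 0.537), both in limma. Mobp, at a probe set other than the one described above, had 0.325 and -2.554 against cortex (limma adjusted p = 0.0502). A probe set with no symbol had 0.062 and -2.221 against cerebellum (limma adjusted p = 0.834). None of the 3X differences passed the threshold.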

How the results depend on the processing

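At a threshold of 1 log2 unit, 760 probe sets lay higher in liver and 655 lower; at 3 log2 units 225 and 82 did. Averaging the probe sets of a gene left 133 genes lower in liver, 110 of them called at 3X, by construction fewer items. Leaving out the cerebellum array, an alternative chosen after seeing the kidney transcripts, gave 445 and 290. Leaving out each 3X array in turn, 273 to 320 members higher in liver, 155 to 165 lower and 18 to 48 between the brain regions were called, the 48 without liver replicate 3; 53 were called in a fit of both brain regions alone. The cause was not tested. The other counts stayed within 1.5 times of those reported. Deviations of same-numbered 3X arrays had r of -0.099 to 0.342, and those of different-numbered arrays had r of -0.359 to 0.248. The replicate 3 arrays deviated together between all 3 tissues, with r of 0.294 to 0.342. The main fit did not take the numbers to pair the samples. With replicate number as a block, 319, 171 and 31 were called. Of 5476 values of single genes and settings, 5141 kept direction and call, 100 gained a call, 121 lost a call, 114 moved with no test and 0 reversed. With 1 array per tissue at 1X and no detection call, differences against dim signals bound no ratio.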

Other observations

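Of the 187 genes in no list, a few are described here. They were picked after their values were seen, stand for no list or pathway, and were not counted against one. Sec61a1, a subunit of the protein channel of the endoplasmic reticulum, had a signal of 8.14 in liver against 6.04 in cortex and 6.09 in cerebellum, and Lman1 and Mcfd2, which together carry clotting factors out of that compartment, had 9.04 and 8.49 in liver against 6.87 and 6.47 in cortex and 6.95 and 6.39 in cerebellum. At 3X Sec61a1 was called (1.51 ± 0.18 from cortex, limma adjusted p = 0.000182), whereas Lman1 differed by 0.02 ± 0.10 (limma adjusted p = 0.925). Etfa, Etfb and Etfdh, the electron transfer proteins that serve fatty acid oxidation, had gaps of 2.77, 2.70 and 2.15, and Etfb was called against both regions at 3X. Sqor and Ethe1, of sulfide oxidation, had gaps of 2.97 and 2.20 and were both called. The lysosomal proteases Ctsl, Ctsh and Ctsz had gaps of 2.68, 2.63 and 2.52, and all 3 were called. Car3, a carbonic anhydrase of liver, fat and muscle, had 7.79 in liver against 1.89 and 2.04 at 1X, and 7.76, 6.88 and 7.93 against 1.81 to 2.25 at 3X.

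Among the genes lower in liver, Eef1a2, the elongation factor of neurons and muscle, had 2.37 in liver against 6.70 and 6.55 at 1X, and 2.56, 2.78 and 2.10 against 6.19 to 6.53 at 3X. The long noncoding RNAs Meg3, Snhg11 and Norad had gaps of -2.72, -2.71 and -2.17 and were called at 3X, where Norad differed by -3.10 ± 0.23 from cortex (limma adjusted p = 4.48e-06). Related genes stood on opposite sides: Scd1, the stearoyl-CoA desaturase of liver, had 11.26 in liver against 6.82 and 8.24, and its brain relative Scd2 had 3.48 against 7.44 and 8.27. Likewise, the connexin genes Gjb1 and Gjb2 had gaps of 3.79 and 3.16 and the astrocyte connexin gene Gja1 had -4.26, and Serpini1, the neuronal serpin, had -3.42 beside the liver serpins. Matr3, a nuclear matrix protein, had a gap of -2.04 at 1X with a larger 3X difference of -3.96 ± 0.47 from cortex (limma adjusted p = 0.000165).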
